A study of Mus musculus with 10 samples.

Results

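The chromosomal neighbours of Lair1 were 83 genes of proximal mouse chromosome 7, out of 17954 annotated genes with a summed count of 15 or more and 52636 genes in the count table. They were chosen by position and by one measured value. The members were every gene starting between 3.0 and 7.5 Mb (GRCm38, GENCODE M21) with a summed count of 15 or more over the 10 libraries, leaving out Lair1 and the receptor genes Pirb, Pira2, Lilra5, Lilra6, Oscar, Tarm1 and Ncr1. The rule itself uses no difference between the genotypes, though it was written with earlier results of these data known. Of the 240 genes that start in the window, 8 were left out by name and 149 fell below the summed count, 97 of these with no count at all. Just inside the threshold were the pseudogenes Gm15928 and Gm9463 with 16 counts each, and just below it were Peg3 with 13 counts and Gm15510 with 12 counts. The first tested member from the centromere was Gm7353 and the last was Gm45631, and the next tested genes beyond the window, Zik1 and Gm5130, start at 10.5 and 10.7 Mb.

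Bulk RNA sequencing covered nonclassical monocytes, the patrolling monocyte subset, sorted from the bone marrow of untreated LAIR1KO mice (genotype LAIR1-/-) and WT mice (genotype LAIR1+/+), with 5 libraries of each genotype. Lair1 encodes a receptor for collagen that restrains white blood cells, and the study's title names its role in monocytes and lung macrophages under resting conditions. The labels give no strain, age or sex and do not describe how the LAIR1-/- allele was built. Nor do they tie the libraries to separate animals, so the p-values speak only of how much these 10 libraries vary.

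Library sizes lay between 12106209 and 15356924 counts. Lair1 itself (4003402 to 4063204, minus strand) stood at 0.226 ± 0.276 CPM (each count scaled to the size of its library) in LAIR1KO and 374 ± 27.7 CPM in WT (SD, n = 5 each), so the genotype labels held. A two-sided exact permutation test gave p = 0.00794, its lower limit with 5 against 5 libraries. The 10 markers of nonclassical monocytes were all tested, none of them passed the test and none was at 0, with a summed level of 10400 to 15500 CPM in LAIR1KO and 13800 to 15500 CPM in WT. In LAIR1KO replicates 1 to 5 the sums were 12640, 11760, 15480, 12210 and 10430 CPM. Only that of replicate 3 was above the lowest WT sum, 13770 CPM, so the list as a whole was not level between the groups. In several other lists, single genes passed the test. Markers of myeloid progenitors summed to 3150 to 6660 CPM in LAIR1KO and 516 to 1370 CPM in WT (7 of 7 higher by edgeR), with the highest sums, 5340 and 6660 CPM, in LAIR1KO replicates 4 and 5. Mitosis genes summed to 300 to 557 CPM in LAIR1KO and 144 to 196 CPM in WT (5 of 5 higher), and macrophage markers to 764 to 1020 CPM in LAIR1KO and 1400 to 1820 CPM in WT (5 of 6 lower). Erythroid markers summed to 29.3 to 110 CPM in LAIR1KO and 73.9 to 1250 CPM in WT (4 of 5 lower), platelet markers had 1 of 3 tested genes lower, and the 1 tested gene of the T and NK cell list was higher. No neutrophil or B cell marker passed. Their part in any change of the neighbours was not tested, and in bulk samples fewer cells of a type and less RNA per cell cannot be told apart.

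Lair1 lies in the leukocyte receptor complex, a dense gene cluster in which families of immunoglobulin-like receptors of white blood cells sit among genes used by most cells. In the mouse the receptors nearest to Lair1 are the paired immunoglobulin-like receptors, whose near-identical copies arose by duplication. On either side of them lie genes for splicing, ribosomes, chromatin, respiration and membrane traffic, and farther from the centromere comes a long run of zinc finger transcription factors. Genes packed this closely often share promoters or overlap on opposite strands, so a read in one can belong to its neighbour. Of the 83 members, 40 had exons that overlap exons of another annotated gene, and 22 shared over 20% of their 50-base words with other genes.

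The start regions of the members that passed the test are given here. That of Prpf31 is a gap of 55 bases to the start of Tfpt, and whether this pair shares a promoter was not tested. The letters are RefSeq's GRCm38.p6 sequence, 5′ to 3′ on the strand of the gene. Capitals mark the GC box GGGCGG and the CCAAT box, each searched on both strands. For Prpf31 the sequence is the whole gap between it and Tfpt, which is transcribed in the opposite direction, at chr7:3629930-3629984 (plus strand). For the others it is the 250 bases before the RefSeq start, at chr7:4119280-4119529 for Ttyh1 (plus strand), chr7:4753095-4753344 for Cox6b2 (minus strand) and chr7:5079985-5080234 for Epn1 (plus strand). GENCODE starts Ttyh1 earlier, at 4119408. By that annotation the later part of its stretch, with the marked GC box, lies within the gene and not before it.
Prpf31: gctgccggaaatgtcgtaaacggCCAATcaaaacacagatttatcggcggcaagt
Ttyh1: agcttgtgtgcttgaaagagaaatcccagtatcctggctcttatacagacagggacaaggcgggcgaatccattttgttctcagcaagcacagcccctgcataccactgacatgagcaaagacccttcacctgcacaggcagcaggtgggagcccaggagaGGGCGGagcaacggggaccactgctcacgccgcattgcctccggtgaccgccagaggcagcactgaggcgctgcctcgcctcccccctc
Cox6b2: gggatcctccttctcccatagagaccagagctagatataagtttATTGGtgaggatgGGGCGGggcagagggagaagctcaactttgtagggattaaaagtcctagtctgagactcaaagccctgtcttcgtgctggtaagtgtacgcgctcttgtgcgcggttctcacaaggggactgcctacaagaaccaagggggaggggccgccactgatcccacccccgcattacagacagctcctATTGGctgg
Epn1: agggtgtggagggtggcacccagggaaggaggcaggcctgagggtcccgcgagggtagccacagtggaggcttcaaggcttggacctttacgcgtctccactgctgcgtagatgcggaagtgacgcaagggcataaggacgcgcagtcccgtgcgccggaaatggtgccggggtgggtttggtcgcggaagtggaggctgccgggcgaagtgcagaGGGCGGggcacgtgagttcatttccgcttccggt
The start regions of Ttyh1, Cox6b2 and Epn1 each held 1 GC box, and that of Cox6b2 also held 2 CCAAT boxes, both on the reverse strand. Among all 27025 promoters of that length in the table, 32.9% held a GC box and 34.5% a CCAAT box. Promoters were found for 58 of the 83 members, of which 34 held a GC box and 24 a CCAAT box. These matches describe letters only.

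Few neighbours of Lair1 changed, and their share was close to that of all tested genes. Of the 83 members, 59 were abundant enough to test and 4 of these passed an adjusted p of 0.05 in edgeR's quasi-likelihood test with Benjamini-Hochberg adjustment over all tested genes. That is 6.78% of the tested members, beside 6.79% of all 13469 tested genes (914 genes). Ttyh1, Cox6b2 and Prpf31 were higher in LAIR1KO, beside 5.11% of all tested genes called higher. Epn1 was lower in LAIR1KO, beside 1.68% of all tested genes called lower. Of all the genes called, 75.3% were higher, a share that stood at 90.1% with scaling by total count in place of TMM, the scaling used here, which sets libraries level on the bulk of their genes.

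Other counts over the members also stood near those over all genes. The groups did not overlap in 5 of 59 tested members (8.47%), beside 7.66% of all tested genes. Those 5 were Prpf31, Gm14548, Ttyh1 and Cox6b2, higher in LAIR1KO, and Zfp524, lower in LAIR1KO. An unadjusted p under 0.05 was reached by 12 tested members (20.3%), beside 21.8% of all tested genes. A log2 fold change beyond 1 in either direction was found in 3 members (5.08%), beside 5.95% of all genes. The median absolute log2 fold change was 0.27 over the members and 0.21 over all tested genes, and the members were less abundant, with a median level of 5.93 CPM beside 22.2 CPM. None of the shares given here, nor the share called, was matched for level. The rest of chromosome 7 had 69 of 981 tested genes changed (7.03%) and the other chromosomes 839 of 12424 (6.75%).

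By distance from Lair1, the changed neighbours were spread over gaps of up to 1.02 Mb, and none lay at 2 Mb or more, where the share called over all tested genes, 6.79%, would come to about 1 of 14. Distance was taken as the gap between the body of a gene and that of Lair1. Under 0.5 Mb, 2 of 24 tested members passed (8.33%; Ttyh1 and Prpf31). Between 0.5 and 1 Mb, 1 of 20 passed (5.0%; Cox6b2), and between 1 and 2 Mb the single tested member, Epn1, passed. At 2 Mb or more, 0 of 14 tested members passed, and 1 of them, Zfp772, had an unadjusted p under 0.05. The median absolute log2 fold change was 0.33 under 0.5 Mb, 0.27 between 0.5 and 1 Mb and 0.19 at 2 Mb or more, beside 0.21 over all tested genes. The median level had the same order over these bins, with 9.75, 5.44 and 4.49 CPM over both genotypes. Members share their libraries and their region, so these counts carry no test, and 1 call more or less in a bin could reorder their shares. With distance taken between gene starts, 2 of 20, 1 of 19, 1 of 6 and 0 of 14 tested members passed in the same bins. On the centromere side 1 of 16 tested members passed (6.25%) and on the other side 3 of 43 (6.98%), both near the 6.79% of all tested genes.

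**Figure D1:**
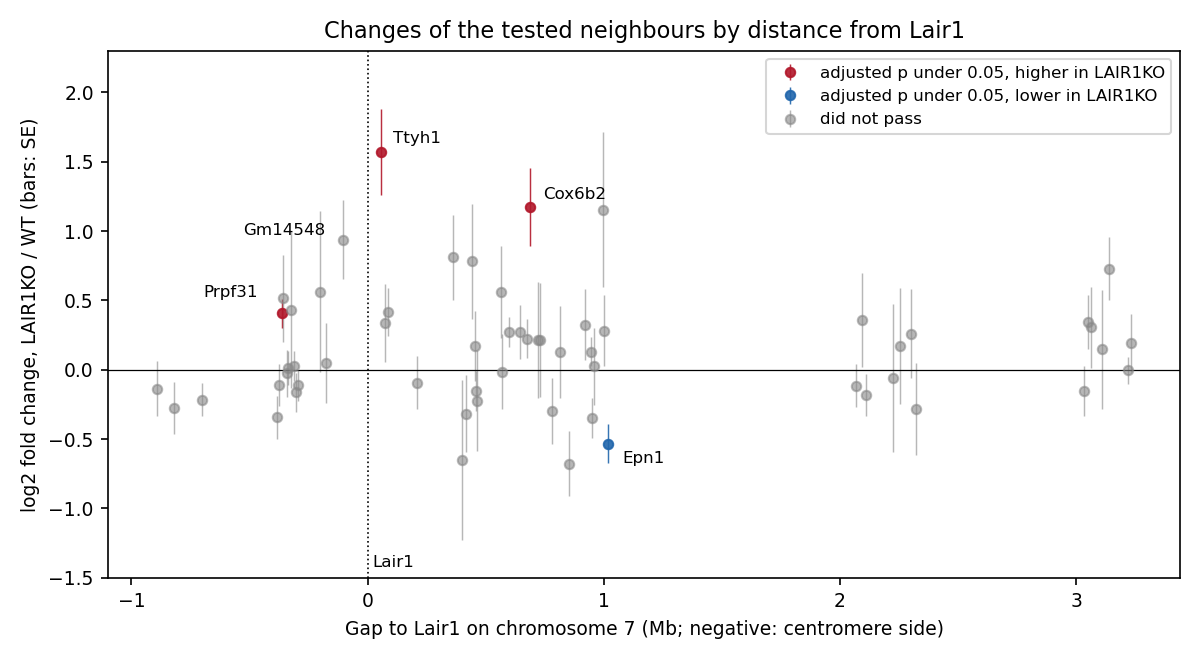
Log2 fold change (LAIR1KO over WT, y axis) of each of the 59 tested neighbours against its gap to Lair1 in Mb (x axis, negative towards the centromere); bars are the SE and coloured points have an adjusted p under 0.05. The 4 coloured genes lie among neighbours that did not pass, and Ttyh1, the nearest on the right of Lair1, has the highest value at 1.57.

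**Figure D2:**
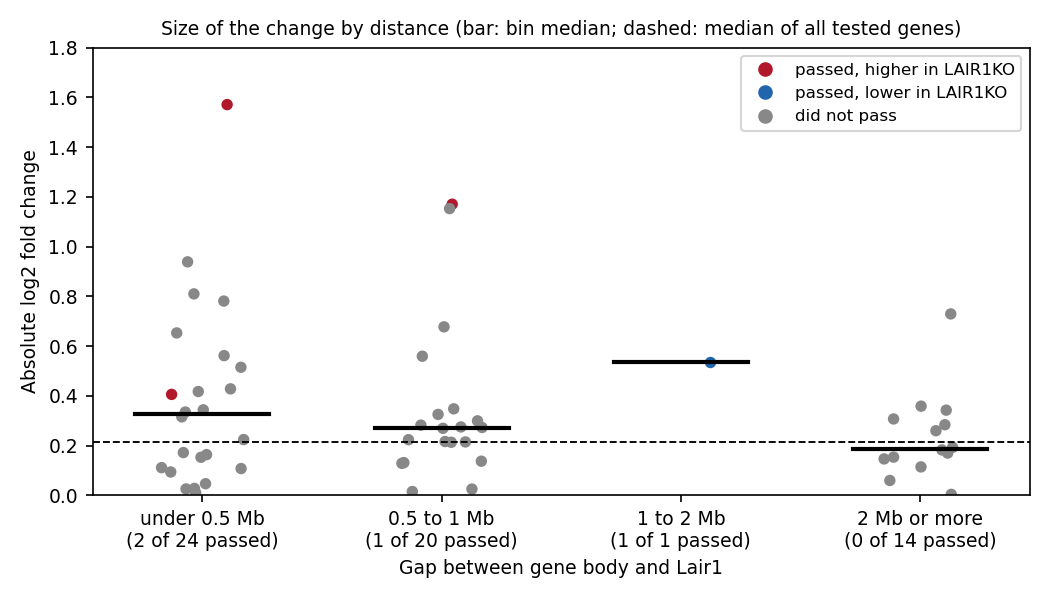
Absolute log2 fold change (y axis) of the tested neighbours in 4 bins of their gap to Lair1 (x axis); each point is 1 gene, the bar is the median of the bin and the dashed line the median of all tested genes, 0.21. The bins overlap widely, with medians of 0.33, 0.27 and 0.19 in the 3 bins that hold more than 1 gene.

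Ttyh1 was the tested gene closest to Lair1 on the side away from the centromere, 56.2 kb from it (ENSMUSG00000030428, 4119408 to 4136708, plus strand). It encodes a membrane protein of the tweety family, best known from the nervous system. Its values rest on 632 counts in all libraries together. It stood at 7.86, 5.11, 10.6, 6.15 and 3.62 CPM in LAIR1KO replicates 1 to 5, against 3.01, 1.77, 2.38, 1.59 and 2.48 CPM in WT replicates 1 to 5. Every LAIR1KO library was above every WT library, with LAIR1KO replicate 3 the highest and replicate 5 the lowest of its group. The mean was 6.67 ± 2.69 CPM in LAIR1KO and 2.24 ± 0.575 CPM in WT (SD, n = 5 each), a log2 fold change of 1.57 ± 0.31 (SE; adjusted p = 0.00896 by edgeR). The call held in each of the 10 fits that left out 1 library, with adjusted p-values from 0.00603 to 0.0252, and was lost with WT replicates 1 and 4 left out together (adjusted p = 0.0501), where fewer libraries entered the fit and the log2 fold change was 1.59. Those libraries and LAIR1KO replicates 4 and 5 were left out in pairs because earlier results of these data had them highest in MHC class II genes and in progenitor genes. The antisense gene D030047H15Rik, chosen here after its values were seen, overlaps Ttyh1 and was too low to test, with 7 to 14 counts per library in LAIR1KO and 2 to 9 in WT. Without a stated strand setting, its reads and those of Ttyh1 cannot be told apart where they overlap, which is 6.65% of the exon bases of Ttyh1 together with a second antisense gene.

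Cox6b2 lies 689 kb from Lair1 on the same side (ENSMUSG00000051811, 4751792 to 4753094, minus strand). It encodes the testis form of subunit 6B of cytochrome c oxidase, the last complex of the respiratory chain. Its values rest on 721 counts in all. Its level was 5.62, 9.89, 5.50, 6.39 and 8.26 CPM in LAIR1KO replicates 1 to 5, against 3.35, 2.69, 2.08, 5.17 and 2.48 CPM in WT replicates 1 to 5. The groups did not overlap, though WT replicate 4 came close to the lowest LAIR1KO libraries. The log2 fold change was 1.17 ± 0.28 (SE; adjusted p = 0.0252 by edgeR). The call held in 4 of the 10 fits that left out 1 library, and in all of them the log2 fold change stayed between 1.02 and 1.43. None of its exons overlaps another annotated gene.

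Prpf31 was the changed member on the centromere side, 361 kb from Lair1 (ENSMUSG00000008373, 3629985 to 3642486, plus strand). It encodes a protein of the spliceosome that helps hold the U4/U6 particle and the U5 particle together, and human mutations in it cause retinitis pigmentosa. It stood at 80.0, 99.1, 73.3, 89.3 and 91.3 CPM in LAIR1KO replicates 1 to 5, against 61.1, 67.6, 61.3, 71.8 and 65.0 CPM in WT replicates 1 to 5. All LAIR1KO libraries were above all WT libraries, with LAIR1KO replicate 3 and WT replicate 4 next to each other. The log2 fold change was 0.41 ± 0.10 (SE; adjusted p = 0.0311 by edgeR), and the call held in 3 of the 10 fits that left out 1 library. Tfpt, a subunit of the INO80 chromatin remodelling complex, starts 55 bases away on the other side of the printed gap. It averaged 20.5 ± 3.73 CPM in LAIR1KO and 22.1 ± 2.40 CPM in WT, a log2 fold change of -0.11 ± 0.15 that did not pass (adjusted p = 0.736). The difference between the changes of this pair was not tested. An antisense transcript, Gm15927, covers 18.1% of the exon bases of Prpf31, with 590 counts in all libraries together beside 10477 for Prpf31.

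Epn1 lies 1.02 Mb from Lair1 (ENSMUSG00000035203, 5080235 to 5098178, plus strand) and was the changed member that was lower in LAIR1KO. It encodes epsin 1, an adaptor that bends the membrane at clathrin-coated pits during endocytosis. Its level was 41.7, 47.8, 30.8, 43.7 and 39.8 CPM in LAIR1KO replicates 1 to 5, against 46.2, 61.8, 67.8, 65.2 and 54.0 CPM in WT replicates 1 to 5. The groups overlapped, since LAIR1KO replicate 2 was above WT replicate 1. The log2 fold change was -0.53 ± 0.14 (SE; adjusted p = 0.0377 by edgeR), and the call held in 3 of the 10 fits that left out 1 library. It was lost when libraries were scaled by their totals alone (log2 fold change -0.40, adjusted p = 0.112). U2af2, which ends 296 bases before Epn1 starts and encodes the splicing factor that reads the pyrimidine tract, missed the threshold (log2 fold change 0.28 ± 0.26, adjusted p = 0.57).

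**Figure D3:**
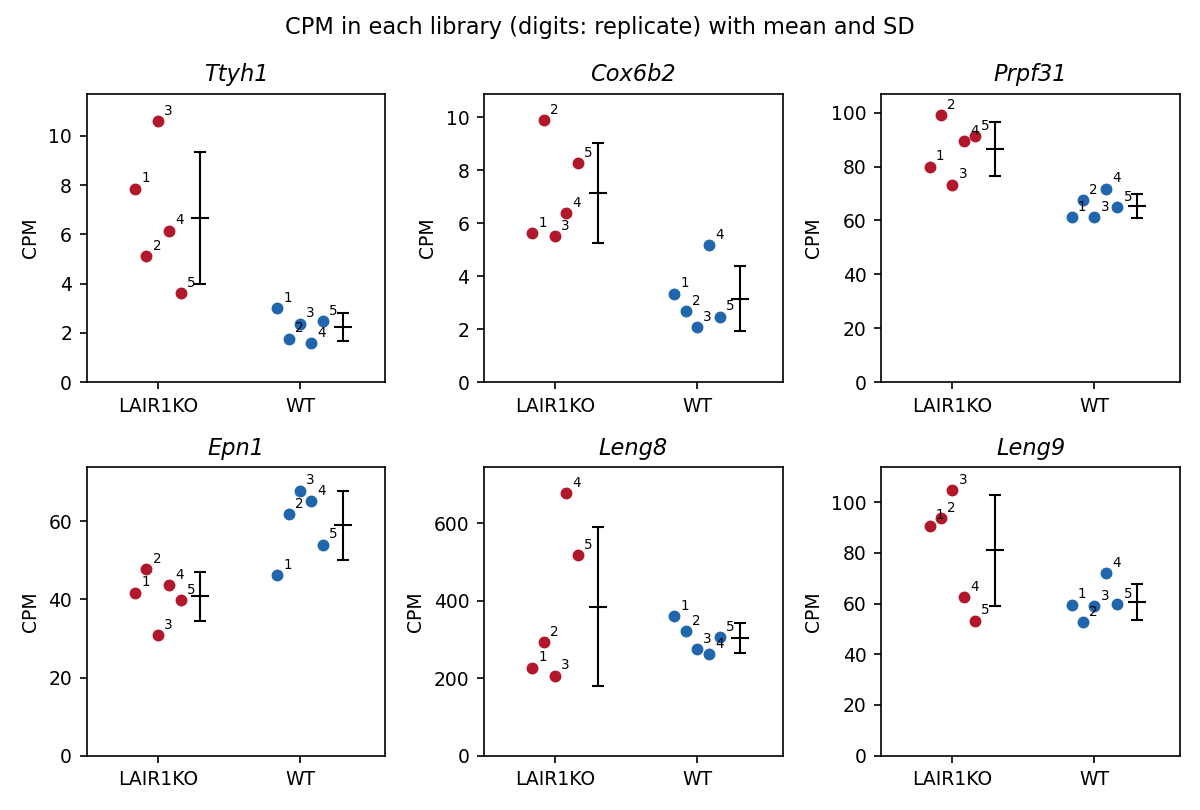
CPM (y axis, from 0) in each LAIR1KO and WT library for the 4 changed neighbours and for Leng8 and Leng9; digits give the replicate and the bars the mean and SD of 5 libraries. The groups are apart for Ttyh1, Cox6b2 and Prpf31 and overlap for Epn1, Leng8 and Leng9. For Leng8 and Leng9, LAIR1KO replicates 4 and 5 stand away from replicates 1 to 3.

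Leng8 and Leng9, whose gene ends overlap by 263 bases on opposite strands, come next after Ttyh1, and the end of Ttyh1 is 330 bases from the start of Leng8. Leng8 was among the most abundant neighbours, at 227, 292, 207, 678 and 518 CPM in LAIR1KO replicates 1 to 5, against 360, 321, 276, 262 and 305 CPM in WT replicates 1 to 5. LAIR1KO replicates 4 and 5 were above every WT library, and LAIR1KO replicates 1 and 3 were below every WT library. Its log2 fold change was 0.34 ± 0.28 (adjusted p = 0.536) and turned to -0.33 without LAIR1KO replicates 4 and 5. Leng9 was split the other way within LAIR1KO, with replicates 4 and 5 below replicates 1 to 3, at 90.8, 93.6, 105, 62.5 and 53.2 CPM in replicates 1 to 5, against 59.5, 52.8, 59.0, 72.0 and 59.9 CPM in WT. Its log2 fold change of 0.42 ± 0.17 did not pass (adjusted p = 0.177), but it passed without LAIR1KO replicates 4 and 5 (0.67, adjusted p = 0.0139). Those libraries also had the most progenitor and mitosis transcripts, and the part of these in the result was not tested.

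On the centromere side the 4 tested members nearest to Lair1 were Gm14548, Gm15448, Gm15925 and Rps9. Gm14548, 105 kb away, shared 71.2% of its 50-base words with other genes, mostly Pira2, Gm15922 and Pirb, so its counts are uncertain. It stood at 2.18 to 3.38 CPM in LAIR1KO and 1.01 to 1.86 CPM in WT, with no overlap between the groups. Its log2 fold change was 0.94 ± 0.29 and did not pass (adjusted p = 0.0718), though it passed in DESeq2 (adjusted p = 0.0319) and with library totals (adjusted p = 0.0275). Gm15448 and Gm15925 shared 54.4% and 56.8% of their words with Pirb and its relatives, and neither passed (log2 fold changes 0.05 ± 0.29 and 0.56 ± 0.58). Gm15931, the fourth tested member on the other side at 211 kb, shared 40.9% and had a log2 fold change of -0.09 ± 0.19. The genes left out by name were not described here one by one. Of the 6 with a summed count of 15 or more, Lair1 included, 5 were tested and 2 changed, beside 6.79% of all tested genes. These were Lair1 itself, lower in LAIR1KO, and 1 other gene, higher in LAIR1KO.

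By role, the groups are small, and with 6.79% of all tested genes called, 0 or 1 call in a group is near that background. Genes for RNA processing had 1 of 6 tested members changed, which was Prpf31. Cnot3, a subunit of the CCR4-NOT complex that shortens mRNA tails, had a log2 fold change of -0.03 ± 0.17, and Tsen34, a subunit of the endonuclease that splices transfer RNA, -0.16 ± 0.14, with 27.3% of its 50-base words also in other genes, most of them in 4930526A20Rik and some in its neighbour Mboat7. Leng1 stood at 20.6 ± 1.93 CPM in LAIR1KO and 20.5 ± 1.79 CPM in WT. After their values were seen, a pattern within the LAIR1KO group stood out: besides Leng8, Cnot3 and U2af2 had their highest LAIR1KO values in replicates 4 and 5. Cnot3 had 46.1 and 43.4 CPM there and 27.7 to 31.4 CPM in LAIR1KO replicates 1 to 3, against 30.6 to 44.6 CPM in WT. U2af2 had 21.9 and 19.5 CPM there and 8.29 to 11.6 CPM in LAIR1KO replicates 1 to 3, against 9.73 to 14.7 CPM in WT. The pattern was not confined to this role group. Tmem86b, of another group and also named after its values were seen, had 5.37 and 4.64 CPM there. It had 2.32 to 3.09 CPM in LAIR1KO replicates 1 to 3. The share of all genes with this pattern was not counted.

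Of the 2 ribosomal protein genes, neither passed. Rps9 averaged 98.1 ± 12.7 CPM in LAIR1KO and 106 ± 12.2 CPM in WT. Rpl28 averaged 2.76 ± 0.742 CPM in LAIR1KO and 2.38 ± 1.75 CPM in WT. Its counts are uncertain, since 27.4% of its 50-base words also occur in other genes, mainly processed copies such as Rpl28-ps1. Of the 2 chromatin genes, neither passed. Kmt5c, a methyltransferase of histone H4, averaged 118 ± 19.2 CPM in LAIR1KO and 101 ± 18.6 CPM in WT (log2 fold change 0.22 ± 0.14, adjusted p = 0.389), and Tfpt is given above.

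The zinc finger genes were the largest role group, with 17 members, 15 of them tested and 0 changed, where the share over all tested genes, 6.79%, would come to about 1 gene. They reached an unadjusted p under 0.05 in 3 cases of 15, beside 21.8% of all tested genes. These were Zfp772, Zfp628 and Zfp524, which are named after their values were seen. Zfp772 averaged 7.40 ± 1.37 CPM in LAIR1KO and 4.46 ± 1.11 CPM in WT, a log2 fold change of 0.73 ± 0.23 (adjusted p = 0.0753), and lies 3.14 Mb from Lair1. Zfp628 averaged 2.57 ± 0.524 CPM in LAIR1KO and 4.11 ± 0.565 CPM in WT (log2 fold change -0.68 ± 0.23, adjusted p = 0.107). Zfp524 stood at 8.26 to 10.8 CPM in LAIR1KO and 11.0 to 14.0 CPM in WT, with no overlap (log2 fold change -0.35 ± 0.15, adjusted p = 0.189), and 46.7% of its 50-base words lie in other genes, mostly Gm44973. The most abundant zinc finger genes were Fiz1, named for its binding to the growth factor receptor Flt3, and Zfp444. Fiz1 averaged 61.1 ± 7.22 CPM in LAIR1KO and 55.8 ± 4.11 CPM in WT. Zfp444 averaged 24.6 ± 3.52 CPM in LAIR1KO and 27.9 ± 5.06 CPM in WT. Of the imprinted Peg3 domain, no gene reached the summed count of 15.

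Enzymes of lipids and mitochondria had 1 of 7 tested members changed, which was Cox6b2. Ndufa3, an accessory subunit of respiratory complex I, averaged 91.5 ± 13.9 CPM in LAIR1KO and 116 ± 27.4 CPM in WT (log2 fold change -0.34 ± 0.16, adjusted p = 0.222). Mboat7, which puts arachidonic acid onto phosphatidylinositol, averaged 71.0 ± 3.45 CPM in LAIR1KO and 69.6 ± 9.42 CPM in WT (log2 fold change 0.03 ± 0.11). Rdh13, a retinol dehydrogenase of mitochondria named after its values were seen, had a log2 fold change of 0.81 ± 0.30 that did not pass (adjusted p = 0.138). Per kb of exon, Ndufa3 was the most abundant of all tested neighbours in WT, with 89.6 CPM per kb in LAIR1KO and 114 CPM per kb in WT. Cox6b2 stood at 6.44 CPM per kb in LAIR1KO and 2.85 CPM per kb in WT, and Ttyh1 at 1.05 CPM per kb in LAIR1KO and 0.352 CPM per kb in WT, so both are low beside it.

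Trafficking, cytoskeleton and chaperone genes had 1 of 5 tested members changed, which was Epn1. Myadm, a membrane protein of myeloid cells and the neighbour with the highest mean CPM, averaged 407 ± 61.0 CPM in LAIR1KO and 473 ± 57.1 CPM in WT (log2 fold change -0.22 ± 0.12, adjusted p = 0.314). Hspbp1, a cochaperone of Hsp70, averaged 70.2 ± 7.76 CPM in LAIR1KO and 58.1 ± 5.54 CPM in WT (log2 fold change 0.27 ± 0.11, adjusted p = 0.156). With scaling by total count it passed (adjusted p = 0.0348). Eps8l1, a relative of the actin regulator Eps8 named after its values were seen, spread widely in both groups, over 1.02 to 8.82 CPM in LAIR1KO and 1.09 to 13.9 CPM in WT.

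Of the phosphatase and kinase genes, 2 of 4 members were tested and neither passed. Ppp6r1, a regulatory subunit of protein phosphatase 6, averaged 237 ± 106 CPM in LAIR1KO and 240 ± 78.6 CPM in WT. Ppp1r12c, a subunit of the phosphatase that acts on myosin, averaged 90.4 ± 33.5 CPM in LAIR1KO and 112 ± 47.4 CPM in WT (log2 fold change -0.32 ± 0.28). Channel and membrane protein genes had 1 of 5 tested members changed, which was Ttyh1. Clcn4, a chloride and proton exchanger, averaged 204 ± 27.1 CPM in LAIR1KO and 204 ± 6.74 CPM in WT, and it sits near the far end of the window. Tmem150b averaged 14.0 ± 3.46 CPM in LAIR1KO and 11.6 ± 1.94 CPM in WT (log2 fold change 0.27 ± 0.19). Of the 2 troponins of striated muscle, neither passed. Tnnt1 averaged 0.801 ± 0.199 CPM in LAIR1KO and 0.462 ± 0.224 CPM in WT, and Tnni3, which overlaps Dnaaf3, averaged 9.23 ± 1.33 CPM in LAIR1KO and 8.17 ± 3.22 CPM in WT. The 13 tested members in no role list held 0 changed genes.

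**Figure D4:**
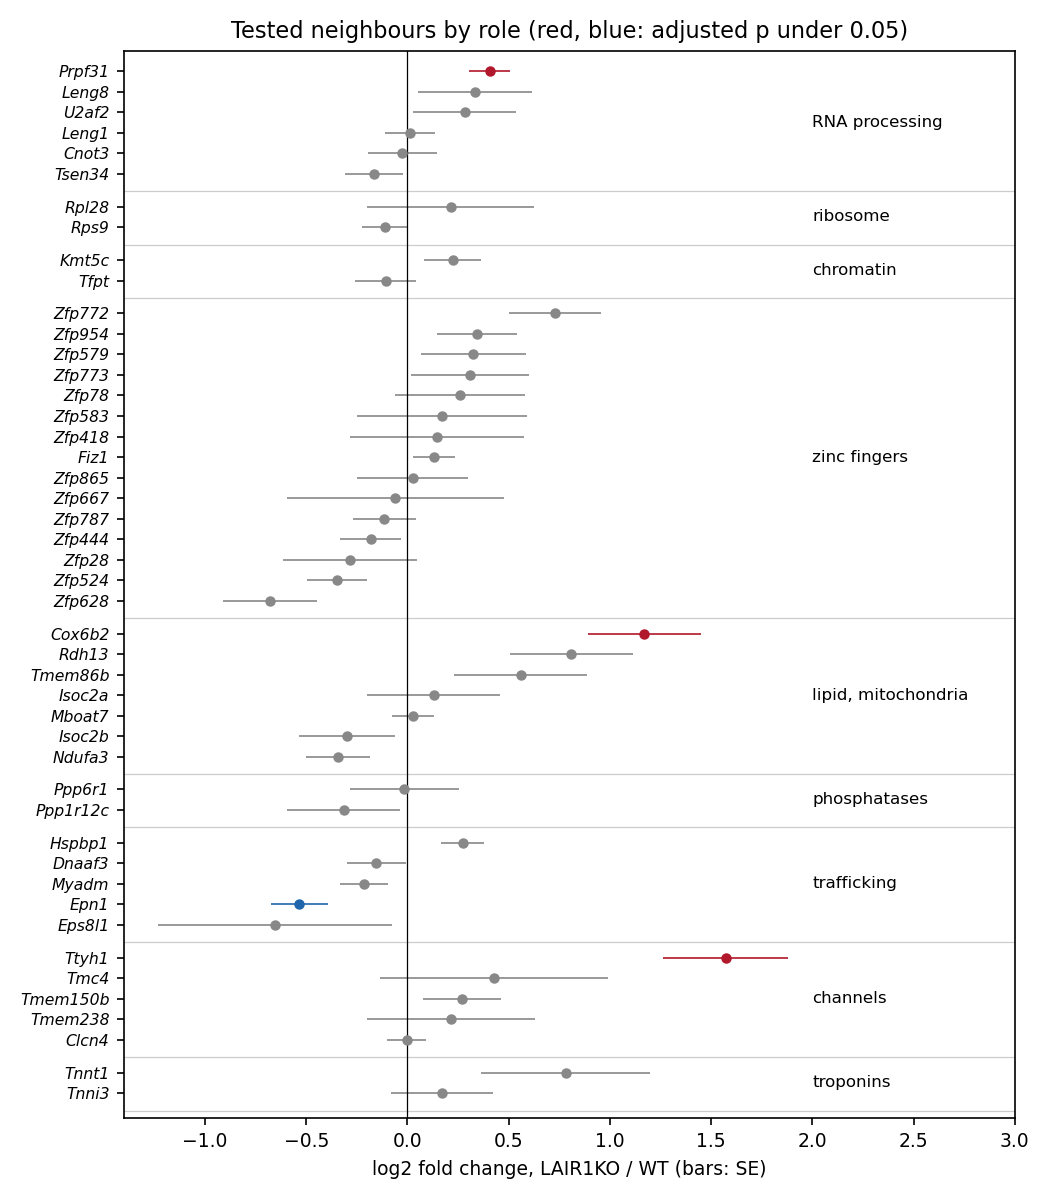
Log2 fold change (LAIR1KO over WT, x axis) with its SE for the tested neighbours in 9 role groups (y axis); coloured points have an adjusted p under 0.05. Each of RNA processing, lipids and mitochondria, trafficking, and channels holds 1 coloured gene, and all 15 zinc finger genes are grey.

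The 24 members that were not tested had summed counts of 16 to 132 and at most 34 counts in any library. The sum was higher in LAIR1KO for 10 of them, higher in WT for 13 and equal for 1. They include both members of the innate and platelet list, which are named here outside the rule for naming genes given below. Nlrp12, a sensor protein of myeloid cells, had 49 counts in LAIR1KO and 83 counts in WT, spread unevenly over the libraries. Gp6, the collagen receptor of platelets, had 0, 1, 0, 0 and 0 counts in LAIR1KO replicates 1 to 5, against 0, 2, 20, 2 and 26 counts in WT replicates 1 to 5. Most of its counts came from WT replicates 3 and 5. Platelet markers summed to 3.25 to 11.2 CPM in LAIR1KO. In WT the sum was highest in replicate 5, at 147 CPM, and lowest in replicate 3, at 6.77 CPM, so the WT libraries with most Gp6 lay at both ends of that list, and its part in the Gp6 counts was not tested. With every member put into the test regardless of level, Gp6 had an adjusted p of 0.0509, and the members that passed were the same 4, which is 4.82% of 83 beside 4.52% of the 17982 genes then tested.

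The genes whose levels ran most like those of the changed neighbours lay on several chromosomes. Over the 10 libraries, Ttyh1 was most like Trim13 (Spearman correlation 0.976), Ift22 and Ubxn11 (0.927 each). Prpf31 was most like Spns3, Recql4 and Tespa1 (0.976 each). Cox6b2 was most like Slc25a4 and Snrnp70 (0.976 each) and Farsa (0.964). Epn1 was most like Arhgef1 (0.952), Rala and Rsf1 (0.939 each). These are the highest of all tested genes and describe the same 10 libraries, which also differ in genotype. None of these 12 genes is a neighbour of Lair1, though Snrnp70, Arhgef1 and Rsf1 are also on chromosome 7. The tested neighbours are only 59 of 13469 tested genes, so their absence here says little. The rest of chromosome 7 holds 981 tested genes.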

How the data were processed

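Nonclassical monocytes sorted from mouse bone marrow gave 5 LAIR1KO and 5 WT bulk RNA-seq libraries, prepared by a low-input method per the labels' protocols. The submitters' processing notes name GSNAP as the aligner and GRCm38.p5 as the genome build. Not given in the sources used here are the version of GSNAP, how reads were counted, the annotation and the strand setting. The deposited values are raw read counts per Ensembl gene, not normalized. Positions and exon lengths came from GENCODE M21 (GRCm38), which matched 52489 of the 52636 genes.

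Counts were tested in R 4.3.3 with edgeR 4.0.16: filterByExpr by group (minimum count 10, minimum total 15), TMM scaling, glmQLFit and glmQLFTest without covariates, and Benjamini-Hochberg adjustment over all 13469 genes kept. Where no other tool is named, an adjusted p is that of edgeR, two-sided. CPM values use TMM-scaled library sizes. Log2 fold changes are LAIR1KO over WT, with SE from the F statistic. DESeq2 1.42.0 and limma voom 3.58.1 were alternatives, beside other scalings, filters and left-out libraries. Replicate libraries differed beyond sampling noise.

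Members, role lists and the rule for named genes were chosen with earlier results of these data known. Named were the members past the threshold, the 4 tested members nearest to Lair1 on each side, the 10 with the highest mean CPM, the 2 most abundant of each role list, and genes at the borders. Other genes were named outside that rule. Some are marked as chosen or named after their values were seen. Cnot3, Tsen34, Leng1, U2af2, Gm15927, Nlrp12 and Gp6 also fall outside it. Likeness is the Spearman correlation of log2(CPM + 0.5).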

Additional observations from a re-analysis of the deposited data

Results flagged for a closer look

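Within a group of 5 libraries, 2 of the 56 groups examined had 1 library far from the other 4, where chance alone gives about 1 group in 20. Ppp6r1 stood at 374 CPM in WT replicate 3, while the other WT libraries lay between 167 and 226 CPM. In LAIR1KO it was higher still in replicate 5, at 414 CPM, with the other libraries between 138 and 230 CPM. That group was not flagged. Rpl28, whose counts are uncertain, stood at 5.47 CPM in WT replicate 2, while the other WT libraries lay between 1.34 and 2.14 CPM.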

How the results depend on the processing

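Of the 4 changed neighbours, all passed with RLE scaling, limma voom, a minimum of 1 CPM in 5 or more libraries, and no filter beyond a summed count of 15. DESeq2 and an adjusted p under 0.1 each called 6 neighbours, adding Gm14548 and Zfp772, among 1516 and 1474 genes in all. That is 10.2% of the tested neighbours in each, beside 11.3% and 10.9% of all tested genes. With library totals in place of TMM, the median log2 fold change of all genes shifted to 0.13. Then 7 neighbours passed (11.9% of those tested), beside 1379 genes (10.2%). Under 0.5 Mb from Lair1, 4 of 24 tested neighbours passed. The next shares in brackets are also of the genes or neighbours tested in that fit. Without LAIR1KO replicates 4 and 5, 376 genes (2.67%) and 2 neighbours (3.23%) passed, namely Ttyh1 and Leng9. Without WT replicates 1 and 4, 338 genes (2.4%) and 1 neighbour (1.67%) passed, namely Cox6b2, with 0 under 0.5 Mb. Leaving out 1 library at a time gave 535 to 1170 genes (3.89% to 8.56%), 1 to 3 neighbours (1.64% to 5.08%), and 1 to 2 under 0.5 Mb. Counting only neighbours free of overlapping exons left 2 changed of 30 tested (6.67%). Fewer samples or members enter these fits by construction; otherwise the cause was not tested.

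Replicate numbers are shared between the genotypes, but same-numbered libraries did not deviate together (correlations -0.100 to 0.057). With a replicate block, 600 genes (4.45%) and 1 neighbour (1.69%) passed, namely Ttyh1, which lies under 0.5 Mb from Lair1. No named neighbour that passed turned its direction under any alternative. The distance bins hold 1 to 24 tested neighbours, and counts under about 10 per library limit what could be tested at the low end.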
